A study of Mus musculus with 10 samples.

Results

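The 7 early podocyte genes examined here were *Wt1*, *Lmx1b*, *Foxc2*, *Nphs1*, *Podxl*, *Ptpro* and *Synpo*, each taken by its gene symbol from a table of 35663 gene entries. All 7 symbols were found once. The members were chosen by their known role in podocytes and with the FPKM values of these libraries known, including the difference in *Lmx1b* between mutant and control kidneys. The members' values are therefore given as a description, and the adjusted p-values beside them show where a member stood among all genes tested.

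RNA-seq was performed on total RNA of whole kidneys dissected from C57/b6 mouse embryos at E13.5. The 10 libraries comprised 4 of wild-type kidneys, 3 of *Foxd1GC* control kidneys (labelled Foxd1-Cre) and 3 of *Ntn1SPKO* kidneys (labelled Foxd1-Cre; Ntn1c/c, with floxed *Ntn1* alleles). *Foxd1GC* is a Cre knock-in at *Foxd1* that is active in stromal progenitors and is carried by the controls as well as by the mutants, so *Ntn1*, which encodes the secreted guidance cue netrin 1, is lost from the stroma and its descendants and not by design from podocytes. The wild-type kidneys carry no Cre allele. The study describes *Foxd1GC* as entailing the loss of a *Foxd1* allele, so comparisons with wild type differ in this as well as in Cre. The labels give neither the number of embryos behind a library nor its litter, so p-values measure only the spread between these libraries.

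Podocytes are the epithelial cells that wrap the glomerular capillaries. They arise from nephron progenitors through the renal vesicle and the S-shaped body, and the filtration slits between their foot processes hold back plasma proteins. At E13.5 the mouse kidney is building its earliest nephrons, so genes of the young podocyte can be read while many genes of the mature slit are still low. Several members are also made elsewhere in the kidney: *Wt1* in nephron progenitors, *Foxc2* in condensing mesenchyme, and *Podxl* in endothelium. In RNA from whole kidneys, fewer cells of a type and less RNA per cell cannot be told apart.

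The label was checked against other podocyte markers. *Tcf21*, a transcription factor of young podocytes that stromal cells also make, was present at 64.3 to 97.7 FPKM (fragments scaled to transcript length and library depth) over the 10 libraries. *Kirrel2*, a slit diaphragm protein, did not exceed 0.0314 FPKM and was at or near 0 in every library, including the wild-type ones. *Col4a3*, a collagen chain of the mature glomerular basement membrane, lay between 0.0899 and 0.306 FPKM. These 2 genes do not stand for the lists they came from. Of 11 slit diaphragm genes, 2 had a mean under 0.5 FPKM, and *Kirrel* ranged from 16.2 to 21.6 FPKM. Of 7 basement membrane genes, 2 had a mean under 0.5 FPKM, and *Col4a5* ranged from 9.72 to 15.8 FPKM.

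Promoter sequences are shown for *Lmx1b*, the member with the widest spread between libraries, and for *Ptpro*, a member at a low level in every library. Each run is the 250 bases before the RefSeq transcription start in GRCm38.p6, 5′ to 3′ on the strand of the gene, with matches to CCAAT in capitals. The *Lmx1b* window is chr2:33641099-33641348 on the minus strand, and the *Ptpro* window is chr6:137252049-137252298 on the plus strand. 
*Lmx1b*: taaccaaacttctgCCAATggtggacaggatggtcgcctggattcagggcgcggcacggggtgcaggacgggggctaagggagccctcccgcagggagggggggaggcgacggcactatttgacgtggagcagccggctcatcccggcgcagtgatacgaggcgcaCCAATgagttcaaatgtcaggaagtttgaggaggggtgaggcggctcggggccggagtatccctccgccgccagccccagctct
*Ptpro*: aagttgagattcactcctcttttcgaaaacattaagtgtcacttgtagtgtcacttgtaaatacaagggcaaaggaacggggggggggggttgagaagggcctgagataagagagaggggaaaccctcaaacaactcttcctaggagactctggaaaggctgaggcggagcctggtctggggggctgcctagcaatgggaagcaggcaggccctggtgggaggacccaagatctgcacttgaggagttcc
The *Lmx1b* window held 2 CCAAT matches, starting 236 and 84 bases before the start, and the *Ptpro* window held none. Of 32851 windows of this length in the RefSeq table, 33.8% held CCAAT on either strand. The motif TATAAA was held by 12.4% of all windows, the motif GGGCGG by 32.7%, the motif TAATTA by 4.84% and the motif CAGCTG by 13.0%, and none of these, also searched on both strands, matched in either window shown. The *Lmx1b* window was 65.2% G and C, which was above 83.0% of all windows, and the *Ptpro* window was 53.6%. In the GENCODE M21 annotation, exons of the antisense transcript *C130021I20Rik* overlap the *Lmx1b* window from position 33641193. That annotation places the 5′ end of *Lmx1b* at position 33640511, further downstream than the RefSeq start. The distances of the matches therefore hold for the RefSeq start only. The RNA-seq values do not measure promoter activity, and the matches are a description of the sequence.

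Depth was estimated from the steps between low FPKM values, which are whole multiples of 1 fragment, and came to 26.4 to 31.7 M fragments per library (1 M is 1e6). Wild-type 3 stood apart in its summed FPKM, at 1002638 against 795829 to 874966 in the other libraries. It also gave lower values for long transcripts, with a median for the longest 25% of transcripts that differed from that for the shortest 25% by −0.45 on the log2 scale, centred on all libraries, against −0.15 to 0.14 elsewhere. *Foxd1GC* control 3 stood apart in its tissue markers, with the lowest summed level of the S-shaped body list and the highest of the skeletal muscle list. That library was also lowest for the pretubular aggregate and renal vesicle list and highest for the stroma and nephron progenitor lists. Its ureteric epithelium list summed to 91.4 FPKM, against 194 to 235 FPKM in the other libraries. Y-linked transcripts were present in wild-type 3, *Foxd1GC* control 2 and all 3 *Ntn1SPKO* libraries, so embryo sex and genotype were not balanced. *Ntn1* was 16.3, 13.1 and 10.7 FPKM in the *Ntn1SPKO* libraries, below every control (24.2 to 51.4 FPKM) and every wild-type library (27.1 to 46.3 FPKM). The log2 fold change against control was −1.48 (exact permutation test, two-sided, p=0.1, the smallest that 3 against 3 libraries allow), and against wild type it was −1.30 (exact permutation p=0.0286, the smallest that 3 against 4 allow). In the limma fits over all genes described below, the adjusted p of *Ntn1* was 0.447 against control and 0.140 against wild type. The deleted gene itself was thus not called in either fit, so a gene left uncalled there may still have changed.

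Per length of transcript, *Wt1* had the highest level of the 7 members and *Nphs1* the lowest. Over the 10 libraries *Wt1* ranged from 75.2 to 91.4 FPKM and *Foxc2* from 34.5 to 41.8 FPKM. *Podxl* followed at 9.22 to 15.6 FPKM and *Synpo* at 3.62 to 10.2 FPKM. *Lmx1b* ranged from 0.360 to 4.15 FPKM, *Ptpro* from 0.332 to 0.886 FPKM and *Nphs1* from 0.207 to 0.655 FPKM. The ranges of *Wt1*, *Foxc2* and *Podxl* did not overlap one another. From *Podxl* downwards, the range of each member overlapped that of the next. In the controls, the *Lmx1b* range (0.498 to 0.680 FPKM) overlapped those of both *Ptpro* and *Nphs1*.

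The spread over libraries also separated the members. The coefficient of variation over all 10 libraries was 6.67% for *Foxc2* and 6.85% for *Wt1*, below the median of 13.2% over the 14534 entries whose mean reached 0.5 FPKM. It was 17.7% for *Podxl*, 26.6% for *Ptpro*, 29.2% for *Nphs1* and 33.7% for *Synpo*. *Lmx1b* had a coefficient of 71.1%, higher than that of 95.6% of those entries, and its highest library was 11.5 times its lowest.

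**Figure D1:**
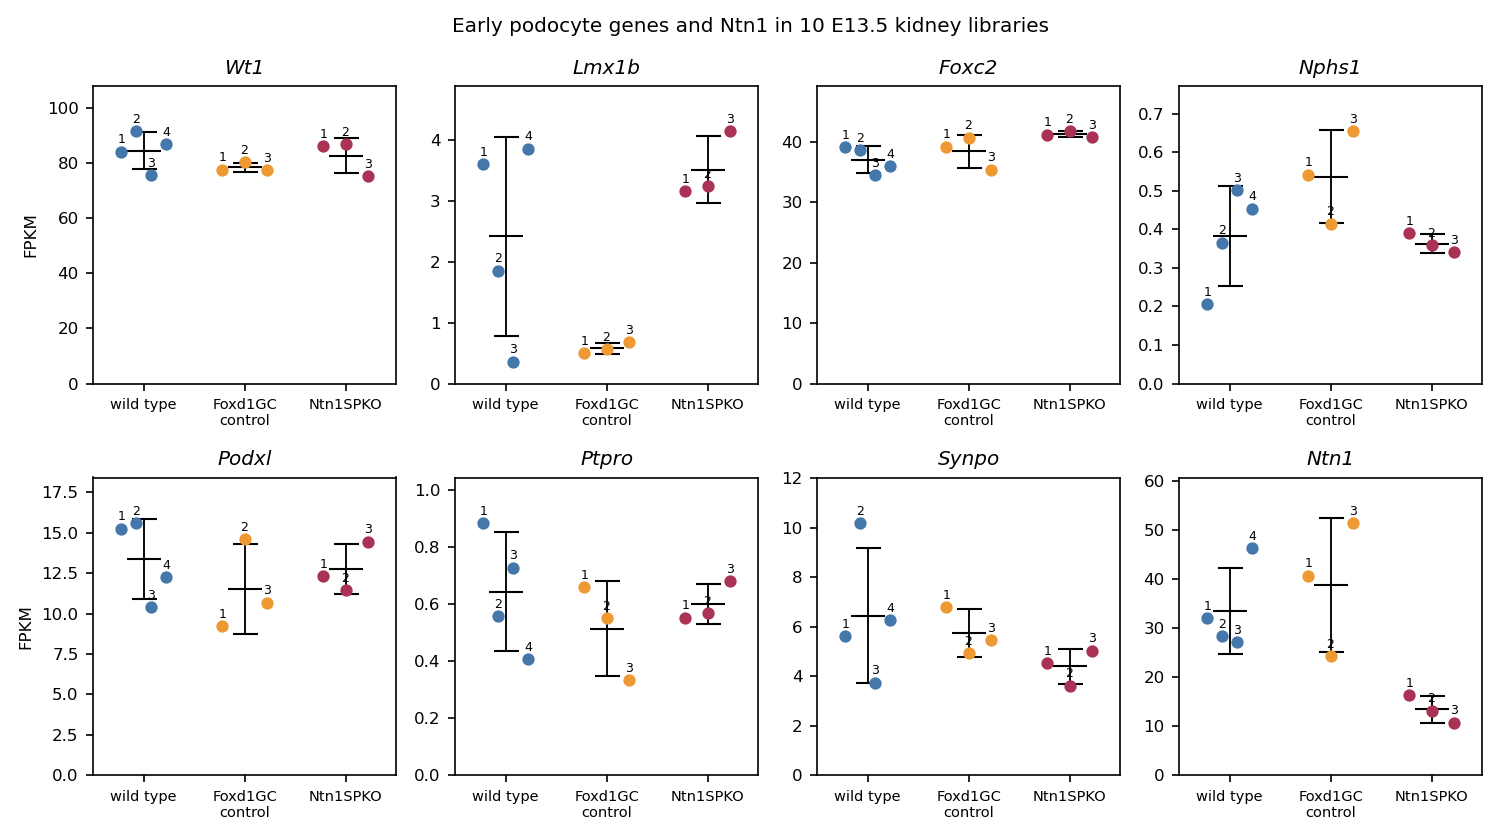
FPKM (vertical axis, from 0) of the 7 members and of Ntn1 in wild-type, Foxd1GC control and Ntn1SPKO kidney libraries, with replicate numbers beside the points and bars for mean ± SD (n = 4, 3 and 3). Lmx1b falls into low libraries (0.360 to 0.680 FPKM) and higher ones (1.86 to 4.15 FPKM), with wild-type 3 among the low ones.

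*Wt1* encodes the zinc finger transcription factor that is needed first to form the kidney and later to specify podocytes. It was 84.0, 91.4, 75.6 and 86.7 FPKM in wild-type libraries 1 to 4. The *Foxd1GC* controls gave 77.5, 80.2 and 77.3 FPKM and the *Ntn1SPKO* libraries 85.9, 86.6 and 75.2 FPKM. All 3 groups overlapped. The log2 fold change between *Ntn1SPKO* and control was 0.07 (95% confidence interval −0.10 to 0.24, adjusted p=0.627 in limma over all genes tested), so a change of 2-fold lay outside the interval.

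*Lmx1b* encodes a LIM homeodomain transcription factor of podocytes that controls slit diaphragm and basement membrane genes, and whose loss of function causes nail-patella syndrome. The gene (ENSMUSG00000038765.13) spans positions 33560965 to 33640511 of chromosome 2, minus strand, in GRCm38. Wild-type libraries 1 to 4 gave 3.61, 1.86, 0.360 and 3.87 FPKM. The 3 controls gave 0.498, 0.560 and 0.680 FPKM, and the 3 *Ntn1SPKO* libraries 3.16, 3.25 and 4.15 FPKM. The mutant and control ranges did not overlap, while the wild-type libraries spanned both, with wild-type 3 below all controls, wild-type 1 and 4 within the mutant range and wild-type 2 between them.

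Groups were compared with limma on log2(FPKM + 0.1) over all genes whose mean reached 0.5 FPKM. Between *Ntn1SPKO* and control, the log2 fold change of *Lmx1b* was 2.41 (95% confidence interval 1.91 to 2.92), or 5.32-fold on this scale. Against wild type it was 0.91 (standard error 0.71, adjusted p=0.947 in limma), and without wild-type 3 it was 0.23. Between control and wild type it was −1.50 (standard error 0.71, adjusted p=0.665 in limma), and without wild-type 3 it was −2.18 (adjusted p=0.324). These comparisons share libraries, and the spread within the wild-type group exceeded that within either other group, with an SD of 1.64 FPKM against 0.0928 in controls and 0.548 in mutants.

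Calls required both a change of 2-fold or more and an adjusted p under 0.1. *Lmx1b* was called in *Ntn1SPKO* against control (adjusted p=0.0398 in limma), but not in every setting tried, although its direction was the same in each. The adjusted p was 0.449 when all 10 libraries were fitted together, 0.243 with the replicate number as a block and 0.338 with embryo sex as a covariate. It was 0.104, 0.222 and 0.165 without *Ntn1SPKO* replicate 1, 2 or 3. Without *Foxd1GC* control 3, the library that stood apart, the log2 fold change was 2.52 (adjusted p=0.0340).

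*Lmx1b* was also read by embryo sex. Among the 5 libraries with Y-linked transcripts, *Lmx1b* was 0.360 FPKM in wild-type 3, 0.560 FPKM in control 2 and 3.16 to 4.15 FPKM in the mutants. Among the 5 without, it was 1.86 to 3.87 FPKM in the 3 wild-type libraries and 0.498 and 0.680 FPKM in controls 1 and 3. All 3 mutants carry Y-linked transcripts and only 1 control does, so no spread within the controls is at hand for a comparison of mutant and control within one sex. Once embryo sex entered the fit as a covariate, *Lmx1b* differed between *Ntn1SPKO* and wild type by 2.96 on the log2 scale. That value sets the mutants against wild-type 3 alone, the only wild-type library with Y-linked transcripts. In the same way, the fit with this covariate against control sets the mutants against control 2 alone.

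The number of fragments behind *Lmx1b* depends on which transcript they fell on. GENCODE M21 lists 2 protein-coding transcripts of this gene, of 1420 and 4790 bases. Mutant libraries held at least 109 to 129 fragments if all fell on the shorter transcript, and wild-type 1 and 4 at least 134 and 132. Controls held at most 66 to 81 fragments if all fell on the longer one, and wild-type 3 at most 50. The bounds of these low and high libraries did not meet, and those of wild-type 2 (66 to 255 fragments) met both. Correcting each library for transcript length and GC content, an alternative chosen after the data were seen, left the log2 fold change between mutant and control at 2.47 (adjusted p=0.0309) and that between control and wild type at −1.62 (adjusted p=0.587).

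**Figure D2:**
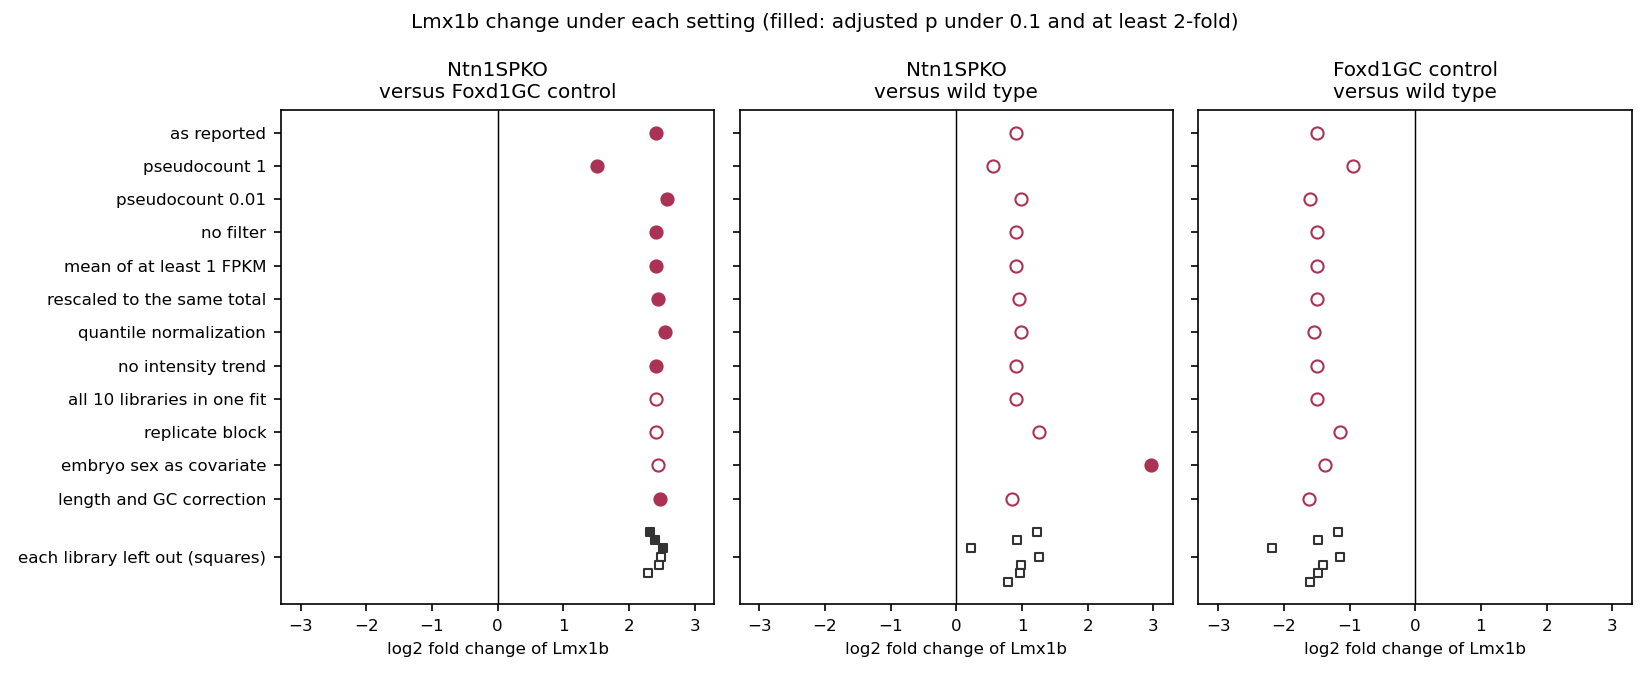
Log2 fold change of Lmx1b (horizontal axes) in the 3 comparisons under each processing setting (circles) and with each library left out in turn (squares), filled where both limits of a call were met (2-fold or more, adjusted p under 0.1). Ntn1SPKO against control stays between 1.51 and 2.58 with calls in some settings only, and the values against wild type move most without wild-type 3 or with embryo sex as a covariate.

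*Foxc2* encodes a forkhead transcription factor that acts in the condensing mesenchyme and in podocyte maturation. It was 39.2, 38.6, 34.5 and 36.0 FPKM in wild-type kidneys, 39.2, 40.7 and 35.4 FPKM in controls and 41.2, 41.8 and 40.8 FPKM in *Ntn1SPKO* kidneys. Every mutant library was above every other library, the closest being mutant 3 at 40.8 and control 2 at 40.7 FPKM. The log2 fold change was 0.10 against control (adjusted p=0.510 in limma) and 0.16 against wild type (adjusted p=0.837), far below 2-fold, with intervals that ended at 0.27 and 0.30. Its single transcript of 2725 bases held 2311 to 3073 fragments per library.

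*Nphs1* encodes nephrin, the core adhesion protein of the slit diaphragm. It was 0.207, 0.366, 0.502 and 0.453 FPKM in wild-type libraries, 0.542, 0.415 and 0.655 FPKM in controls and 0.390, 0.358 and 0.341 FPKM in *Ntn1SPKO* libraries. The mutants were below every control and within the wild-type range. The mean over the libraries of each comparison was under 0.5 FPKM, so the filter on low values left *Nphs1* out of the reported comparisons. With no filter it was tested and not called in any of the 3, with log2 fold changes of −0.44 in mutant against control (standard error 0.26, adjusted p=0.589 in limma), −0.013 in mutant against wild type (adjusted p=0.992) and 0.43 in control against wild type (adjusted p=0.749). No library held more than 75 of its fragments even if all fell on the longest of its 3 protein-coding transcripts.

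*Podxl* encodes podocalyxin, the sialomucin of the apical podocyte membrane. It was 15.3, 15.6, 10.4 and 12.3 FPKM in wild-type, 9.22, 14.6 and 10.7 FPKM in control and 12.3, 11.4 and 14.4 FPKM in *Ntn1SPKO* libraries. The groups overlapped, and the log2 fold change between mutant and control was 0.17 (95% confidence interval −0.28 to 0.61, adjusted p=0.671 in limma). Between the controls and wild type it was −0.22 (adjusted p=0.732). Endothelial cells also make podocalyxin, and the summed level of 8 endothelial genes was 158 to 204 FPKM in wild-type, 200 to 220 in control and 198 to 219 FPKM in mutant libraries. Its part in the *Podxl* values was not tested.

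*Ptpro* encodes a receptor tyrosine phosphatase of the apical podocyte surface, also known as GLEPP1. It was 0.886, 0.557, 0.729 and 0.406 FPKM in wild-type, 0.659, 0.551 and 0.332 FPKM in control and 0.553, 0.569 and 0.682 FPKM in *Ntn1SPKO* libraries. All groups overlapped. The log2 fold change between mutant and control was 0.23 with an interval from −0.63 to 1.08 (adjusted p=0.771 in limma), so that a change of 2-fold was not outside it.

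*Synpo* encodes synaptopodin, an actin-associated protein of the foot process. It was 5.61, 10.2, 3.74 and 6.25 FPKM in wild-type, 6.80, 4.93 and 5.46 FPKM in control and 4.53, 3.62 and 5.03 FPKM in *Ntn1SPKO* libraries. The lowest control lay below the highest mutant, and wild-type 2 was above all other libraries, none of which exceeded 6.80 FPKM. Of the 6 members that passed the filter, *Synpo* alone had a lower mean in mutants than in controls, with a log2 fold change of −0.38 (95% confidence interval −0.80 to 0.05, adjusted p=0.447 in limma). Against wild type it was −0.47 (adjusted p=0.947).

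Of the 6 members tested between *Ntn1SPKO* and control, 1 was called, against 0.055% of the 14550 genes tested, and 2 (*Lmx1b* and *Foxc2*) had groups that did not overlap, against 19.9% of genes. Since the members were chosen with this comparison known, nothing is read from these counts. Between *Ntn1SPKO* and wild type, 0 of 6 members were called, against 0.0485% of 14432 genes, and 1 (*Foxc2*) had groups that did not overlap, against 7.1%. That member was also the 1 with an unadjusted p under 0.05 in limma, a limit met by 5.76% of genes. Between control and wild type, 0 of 6 were called, against 0.00685% of 14594 genes, 0 had groups that did not overlap, against 8.09%, and 0 had an unadjusted p under 0.05, against 7.06%. The median log2 fold change of the tested members was 0.13 in mutant against control, −0.04 in mutant against wild type and −0.16 in control against wild type, beside medians over all genes tested of 0.01, 0.00 and −0.01.

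**Figure D3:**
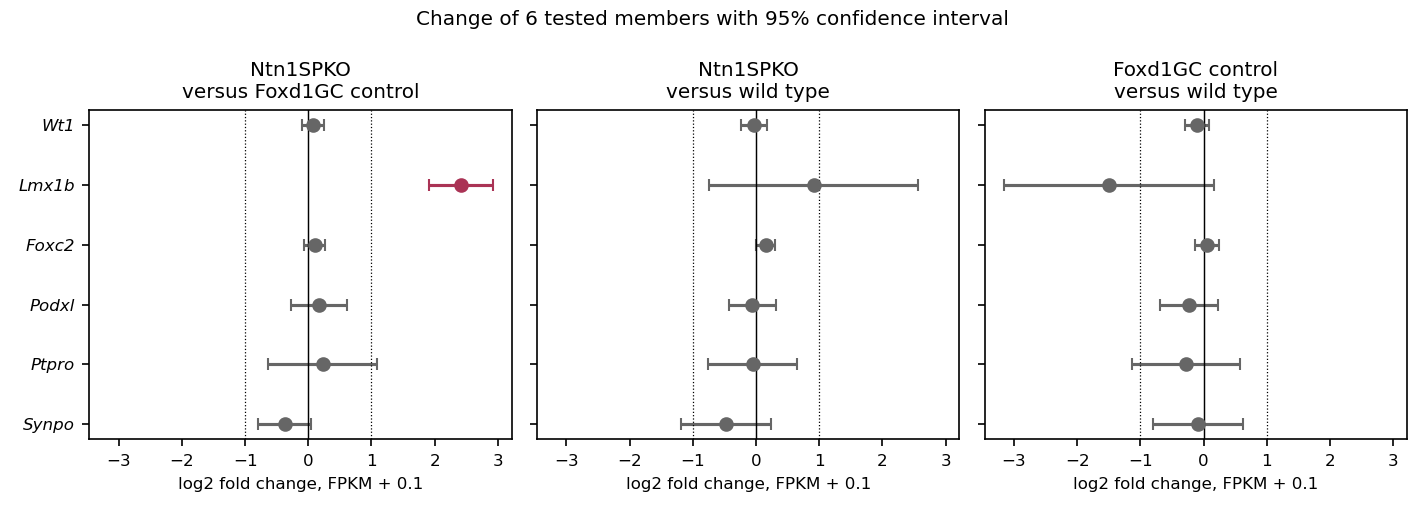
Log2 fold change (horizontal axes, FPKM + 0.1) of the 6 tested members in the 3 comparisons, with 95% confidence intervals and dotted lines at 2-fold. The intervals of Wt1, Foxc2 and Podxl stay within 2-fold in all 3 panels, and Lmx1b in Ntn1SPKO against Foxd1GC control, in red, is the only member called.

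Over the 10 libraries, the members did not share 1 pattern. Among the 21 pairs, Pearson's r of log2(FPKM + 0.1) ranged from −0.74 for *Nphs1* with *Podxl* to 0.54 for *Wt1* with *Lmx1b*. *Lmx1b* had an r of 0.04 with *Synpo*, 0.07 with *Ptpro*, 0.44 with *Foxc2* and −0.67 with *Nphs1*. These values describe 10 libraries in 3 groups, and each library is 1 source shared by all members. Among 13152 other genes whose mean reached 1 FPKM, those most like the mean of the 6 members above 0.5 FPKM were *Pdgfrb* (r = 0.967), *Dhx8* (0.957), *Map3k1* (0.956), *E2f7* (0.955) and *Atn1* (0.955), followed by *Enah*, *Dnmt1*, *Ncor1*, *Wapl* and *Arid3a* (0.950 to 0.948). That mean, with each member centred and scaled over the 10 libraries on the log2 scale, was lowest in control 3 (−0.94) and wild-type 3 (−0.94), the libraries that stood apart, against −0.35 to 0.84 in the other 8. The part of those 2 libraries in the order of these genes was not tested. For *Lmx1b* alone, a comparison chosen after its values were seen, *Kdm1a* (0.942), *Polr3a* (0.938) and *Ripor1* (0.937) came closest. *Kdm1a* moved far less than *Lmx1b*, between 74.6 and 92.9 FPKM.

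Companion genes of the podocyte and glomerulus were read from 6 lists of 40 genes in all, drawn up from general knowledge but with earlier results of these data known. Of these, 35 were tested between *Ntn1SPKO* and control. In limma 0 were called, against 0.055% of all genes tested, with 17 at a higher and 18 at a lower mean. The median log2 fold change was −0.02, and 2 had an unadjusted p under 0.05, against 10.7% of all genes tested. Groups did not overlap for 4 companions higher in mutants and 4 lower, against 19.9% of all genes tested in either direction. Between mutant and wild type 0 of 36 were called, against 0.0485% of all genes tested, with 2 at an unadjusted p under 0.05, against 5.76%. Between control and wild type 0 of 35 were called, against 0.00685%, with 3 at an unadjusted p under 0.05, against 7.06%.

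In the transcription factor list, *Dach1*, which marks early podocytes and also nephron tubules and progenitors, had the highest log2 fold change of the tested companions between mutant and control, 0.78 (adjusted p=0.461). It was 9.70 FPKM in control 3 against 21.1 and 33.3 FPKM in the other 2 controls and 30.6 to 36.1 FPKM in mutants.

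In the basement membrane list, *Itga3*, the integrin chain that anchors podocytes to laminin, had a log2 fold change between mutant and control of 0.43 (adjusted p=0.461). It was 3.74 FPKM in control 3, 6.65 and 6.52 FPKM in controls 1 and 2 and 7.04 to 7.74 FPKM in mutants. Every mutant was thus above every control. *Lama5*, a laminin chain of the glomerular basement membrane, had a log2 fold change of 0.42 (adjusted p=0.540), again with its lowest value, 3.90 FPKM, in control 3. At the other end were *Sulf1*, a heparan sulfate sulfatase, at −0.73, *Rhpn1*, of the foot process cytoskeleton list, at −0.49 and *Nebl*, an actin-binding protein, at −0.44, with adjusted p-values of 0.447 to 0.580 in limma. The *Nebl* value rested on control 1, at 3.96 FPKM against 1.87 and 1.46 FPKM in the other controls, and was −0.036 without that library. Without control 3 the log2 fold changes of *Dach1*, *Itga3*, *Lama5* and *Rhpn1* were 0.30, 0.16, 0.042 and −0.26. That of *Sulf1* was −1.11 without control 2, and leaving out each library in turn gave −1.11 to −0.52. *Sulf1* was 57.1, 27.4 and 61.7 FPKM in controls 1 to 3 and 23.9 to 35.3 FPKM in mutants, so control 2 lay within the mutant range.

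Among the lowest log2 fold changes of the mutants against wild type were those of *Thsd7a*, a podocyte surface antigen, at −0.60 (adjusted p=0.799), and *Trpc6*, a slit diaphragm calcium channel, at −0.36 (adjusted p=0.947). The largest differences upwards were 0.24 for *Magi2*, 0.14 for *Robo2* and 0.13 for *Actn4*, each at an adjusted p of 0.947. Controls differed from wild type by −0.67 in *Dach1* and −0.58 in *Lama5*, and upwards by 0.75 in *Sulf1*, 0.48 in *Nebl* and 0.38 in *Lamb2*, with adjusted p-values of 0.665 to 0.679. Without control 1 the *Nebl* value was 0.072, and without control 3 those of *Dach1*, *Lama5* and *Lamb2* were −0.19, −0.20 and 0.25.

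Genes of the nephron stages from which podocytes arise were read beside the members. The summed level of 8 S-shaped body tubule genes was 22.7 to 34.1 FPKM in wild-type, 22.3 to 24.9 FPKM in *Ntn1SPKO* and 15.7, 32.7 and 6.45 FPKM in the controls. The 10 genes of the pretubular aggregate and renal vesicle summed to 203, 294 and 134 FPKM in the controls, against 243 to 276 FPKM in mutants and 263 to 310 FPKM in wild-type libraries. In control 3, where both lists were lowest, *Wt1*, *Lmx1b*, *Foxc2* and *Nphs1* were 77.3, 0.680, 35.4 and 0.655 FPKM, so that *Lmx1b* and *Nphs1* were higher, and *Wt1* and *Foxc2* lower, than in the other 2 controls. *Ptpro* was at its lowest there, at 0.332 FPKM. With the 7 nephron progenitor genes added, 0 of 22 genes tested were called between mutant and control in limma, against 0.055% of all genes tested. Of these, 1 had an unadjusted p under 0.05, against 10.7%. Between mutant and wild type 0 of 24 were called, against 0.0485%, with 8 at an unadjusted p under 0.05, against 5.76%. Between control and wild type 0 of 24 were called, against 0.00685%, with 7 at an unadjusted p under 0.05, against 7.06%.

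Markers of other tissues differed between libraries. The summed level of 7 skeletal muscle genes was 38.8, 11.1 and 183 FPKM in the controls against 4.32 to 14.3 FPKM in mutants and 17.3 to 39.5 FPKM in wild-type libraries. *Lmx1b* was low in all 3 controls, including control 2, whose muscle level lay within the range of the mutants. The 8 neuronal genes, of which 5 had a mean under 0.5 FPKM, summed to 12.8 to 25.2 FPKM over all libraries, and the highest was wild-type 3, a library with low *Lmx1b*. The 8 gonadal and adrenal genes, of which 7 had a mean under 0.5 FPKM, summed to 2.74 to 4.32 FPKM. The remaining gene, *Mc2r*, was 2.80 to 3.02 FPKM in mutants and 1.84 to 2.35 FPKM in the other libraries. Its adjusted p in limma was 0.447 against control and 0.529 against wild type. The part of these tissues in the members' values was not tested.

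**Figure D4:**
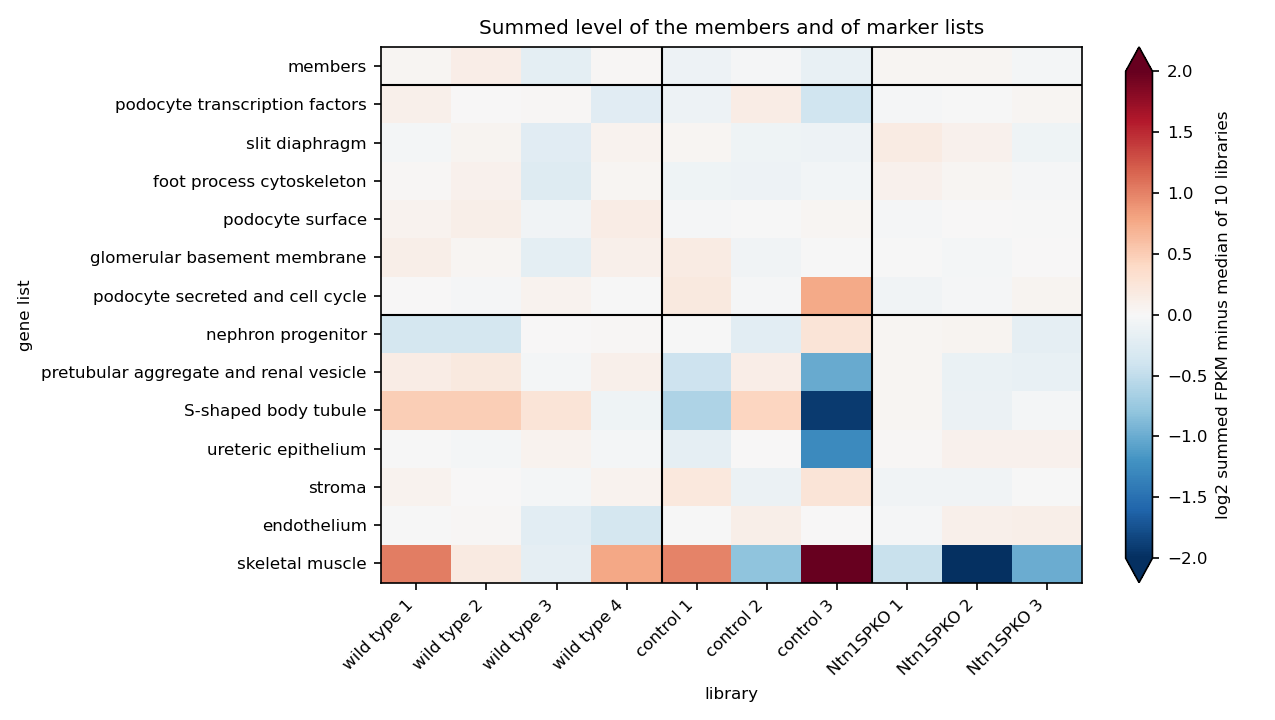
Log2 summed FPKM of the members, of the 6 companion lists and of 7 marker lists (rows) in each library (columns), as the difference from the median of the 10 libraries. Control 3 is low for the S-shaped body tubule list (6.45 FPKM) and the ureteric epithelium list (91.4 FPKM) and high for skeletal muscle (183 FPKM). The members' row is a sum of FPKM in which *Wt1* and *Foxc2* have the highest levels, and it does not show the members with low levels.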

How the data were processed

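RNA-seq libraries from whole E13.5 kidneys were grouped by genotype label as wild type (n = 4), *Foxd1GC* control (n = 3) and *Ntn1SPKO* (n = 3). According to the study's methods, the authors quantified reads with Salmon against coding sequences of Ensembl GRCm38 and imported them with tximport, and the submitters' processing notes name bcl2fastq 2.17.1.14. The values the authors deposited are FPKM, so the authors' DESeq2 test on counts was not repeated. Low FPKM values stepped by whole fragments on full transcript lengths (93.6% to 96.3% within 0.05 of a whole number), which gave the rough depths.

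limma 3.58.1 in R 4.3.3 was run on log2(FPKM + 0.1) for entries with a mean of at least 0.5 FPKM, using an intensity trend in eBayes, and p-values were adjusted by Benjamini-Hochberg over all entries tested. *Ntn1* was compared by exact permutation in SciPy. The limma step was tried on simulated data, with changes placed only in genes above the levels of *Lmx1b*, *Ptpro* and *Nphs1*. That trial therefore does not cover those members.

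Members and lists were chosen with earlier results of these data known. Genes named were the 7 members, *Ntn1*, companions called or among the 3 highest and lowest fold changes per comparison, called genes of the nephron stage lists, and the 10 genes most like the members. Alternatives were other pseudocounts, filters, scalings, thresholds and fits, embryo sex as a covariate, and leaving out each library. Promoters came from RefSeq (3 of 7 members matched), and a window that overlaps an annotated UTR was left out. Some companion genes counted in the lists are not reported here by name.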

Additional observations from a re-analysis of the deposited data

How the results depend on the processing

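*Lmx1b* in *Ntn1SPKO* against control kept its direction in all settings, with a log2 fold change of 1.51 to 2.58, but the members called fell from 1 to 0 when all 10 libraries were fitted together, with the replicate block and with embryo sex as a covariate, and were 0 to 1 when a library was left out (0 without any 1 of the *Ntn1SPKO* replicates). Members called in control against wild type rose to 1, *Lmx1b*, with an unadjusted p under 0.1. With embryo sex as a covariate, mutants are set against wild-type 3 alone. For that fit, no count of members called against wild type is given. The count of all genes called in it, listed below, rests on that single wild-type library and is not read further. Against control, the same covariate sets the mutants against control 2 alone. The companions called stayed at 0 in every setting in all 3 comparisons.

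Genes called in *Ntn1SPKO* against control went from 8 to 334 with an unadjusted p under 0.1, 21 without a filter, 0 with all 10 libraries, 4 with the replicate block, 4 with embryo sex, and 3 (without *Ntn1SPKO* replicate 2) to 78 (without control replicate 2) when a library was left out. Against wild type they went from 7 to 201, 18, 0 and 187 in the same settings other than the block, 2 with a pseudocount of 1, 12 without the intensity trend, 13 with the length and GC correction chosen after seeing the data, and 1 (without *Ntn1SPKO* replicate 2) to 20 (without wild-type replicate 4). In control against wild type they went from 1 to 207 with an unadjusted p under 0.1, 9 without a filter, 0 with all 10 libraries, 4 without the intensity trend, 2 with either pseudocount, and 3 to 20 (without control replicate 2).

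Signs turned in values that were not called. With embryo sex as a covariate, *Podxl*, *Sulf1* and *Dach1* in mutant against control became −0.20, 0.0083 and −0.025, and *Wt1*, *Podxl* and *Synpo* in mutant against wild type became 0.13, 0.28 and 0.21. Rescaled to the same total, *Wt1* and *Ptpro* in mutant against wild type became 0.025 and 0.0019, and *Ptpro* became 0.031 with quantile normalization. *Foxc2* in control against wild type became −0.10 with the length and GC correction. Leaving out a library gave −0.0086 to 0.40 for *Ptpro* in mutant against control. In mutant against wild type it gave −0.083 to 0.035 for *Wt1*, −0.17 to 0.022 for *Podxl* and −0.22 to 0.10 for *Ptpro*, and in control against wild type −0.32 to 0.16 for *Synpo*. *Ntn1* moved from −1.46 to −1.14 in mutant against wild type, where fewer libraries cannot reach the permutation p of the full set, and from −0.057 to 0.48 in control against wild type. The causes were not tested.

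Same-numbered libraries did not deviate together (correlations of −0.05 to 0.08), so the replicate block shares only a number, and it drops wild-type 4, which has no partner. Its 4 calls stand beside 8 without it. The low fragment numbers of *Nphs1* and *Ptpro* limit what can be seen of them.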
